A study of Mus musculus with 30 samples.

Results

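The genes described here are 10 feedback and target genes whose transcripts report the output of the ERK pathway, namely Dusp4, Dusp5, Dusp6, Spry1, Spry2, Spry4, Spred1, Etv4, Etv5 and Phlda1. They were chosen by gene symbol, and all 10 were found among the 48440 Ensembl genes of the count table and passed the filter on low counts that kept 16862 genes. Their RNA was measured by bulk RNA sequencing of 30 fibrosarcomas grown in C57BL/6 mice from 5 primary tumor cell lines, which had been induced with the carcinogen 3-methylcholanthrene (MCA). MCA-943 (4 tumors, strain given as Ncr1Cre) and MCA-969 (8 tumors) are the lines classed as not sensitive to NK1.1+ cells, and MCA-948 (8 tumors), MCA-970 (6 tumors) and MCA-972 (4 tumors) are classed as sensitive. The strain of MCA-969, MCA-948, MCA-970 and MCA-972 is given as Ncr1Cre R26DTA, in which Cre driven from the Ncr1 gene of NK cells and ILC1 would switch on diphtheria toxin A. In the paper, mice of these genotypes were injected with MCA and bore the primary tumors, and the derived lines were transplanted into C57BL/6 mice. The given strain is thus not read here as that of the mice in which the sequenced tumors grew. Strain and line cannot be told apart for MCA-943. Of the 8 tumors of MCA-969, W-1D and W-2D carry the label sensitive, and both were kept with their line. Each line comes from 1 primary tumor, so the tumors are replicates of a line and not of a sensitivity class.

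In the ERK pathway, receptor tyrosine kinases and Ras activate the kinases RAF, MEK and ERK in turn, and active ERK raises the transcription of a set of genes within minutes to hours. Many of these genes encode brakes on the same pathway: dual-specificity phosphatases remove the activating phosphates of ERK and related kinases, and Sprouty and Spred proteins act between the receptor, Ras and RAF. Others, such as the ETS factors Etv4 and Etv5, carry the signal on to further genes. In fibroblasts and in tumors of mesenchymal origin the pathway is a main route from growth factor receptors to proliferation.

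The libraries held 27745104 to 46537062 counts per tumor. Levels are given as CPM, counts per 1000000 after normalization for library size, and an SD is over the tumors of 1 line. Hematopoietic cells had been removed with CD45 beads, and the 12 leukocyte markers summed to between 11.9 and 275 CPM per tumor, with the NK cell gene Ncr1 at 0 in all tumors of MCA-972. The 8 mesenchymal markers summed to between 14586 and 76191 CPM, with the lowest sums in MCA-948, and no mesenchymal marker was at 0 in a line. Summed endothelial markers lay between 15.7 and 454 CPM and were highest in MCA-970 (251 to 454 CPM). Keratinocyte, skeletal muscle and adipocyte markers summed to at most 8.91, 15.4 and 0.362 CPM. In bulk RNA, fewer cells of a type and less RNA per cell cannot be told apart.

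The members differed widely between lines, and no line was highest or lowest in all 10 of them. All 10 passed the F test over the 5 lines in edgeR's quasi-likelihood model, with adjusted p-values from 4.13e-16 for Etv5 to 0.0025 for Dusp4, but 94.1% of the genes tested did so, and the count says nothing particular about these genes. MCA-948 had the lowest mean of 7 members (Dusp6, Spry1, Spry2, Spred1, Etv4, Etv5 and Phlda1) and the highest of none. For Spred1 the mean of MCA-943 was the same to 3 digits. Over all genes tested, MCA-948 had the lowest mean in 23.95%. The highest means lay in MCA-969 for Dusp5, Dusp6 and Spred1, in MCA-972 for Spry2, Spry4 and Etv5, in MCA-943 for Dusp4 and Phlda1, and in MCA-970 for Spry1 and Etv4. Per kilobase of counted length and averaged over the 30 tumors, the level ran from 12.2 CPM per kilobase for Spry4 and 14.6 for Etv5 to 45.5 for Dusp6 and 64.3 for Phlda1. Of the 40 pairs of lines that were neighbours in the order of a member's means, 16 differed at an adjusted p-value under 0.05 and 24 did not.

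**Figure D1:**
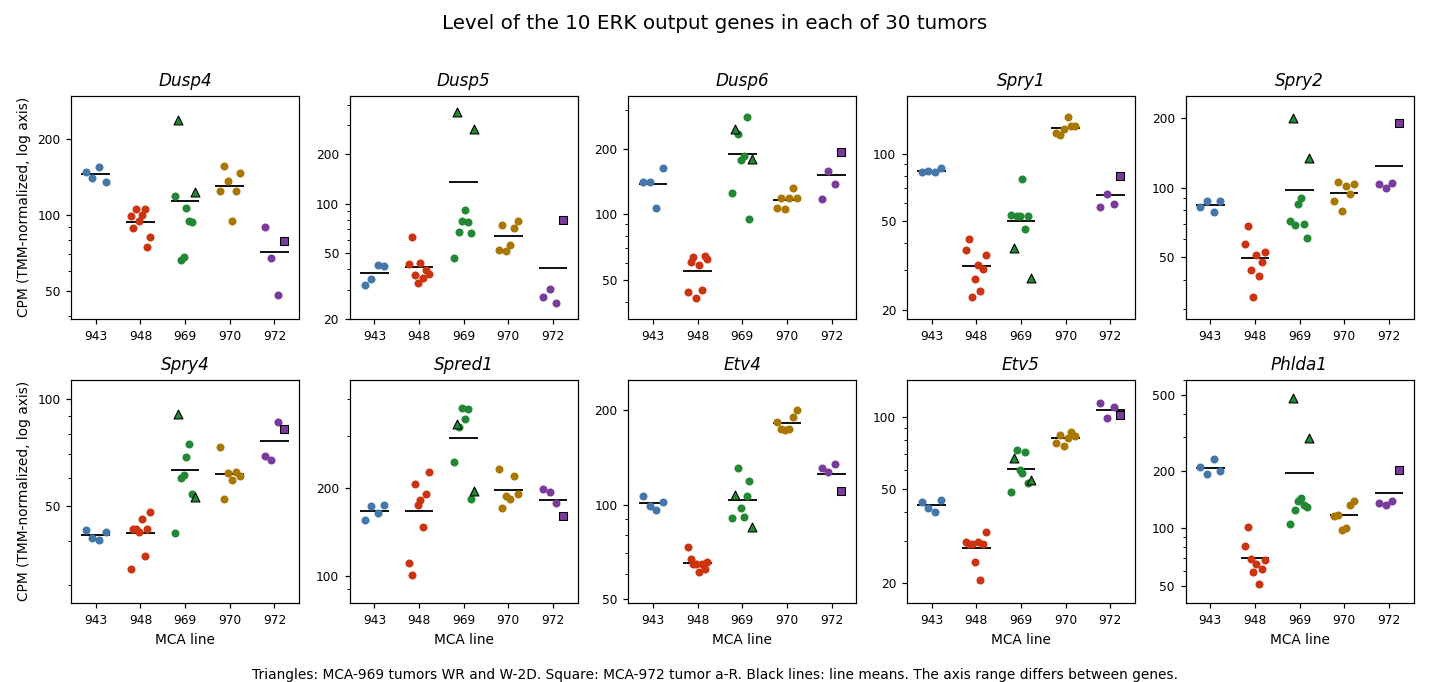
Level of each of the 10 genes in 30 tumors, in CPM on a logarithmic axis whose range differs between genes, with 1 point per tumor and a black line at the mean of each MCA line. MCA-948 lies lowest for Dusp6, Etv4 and Etv5 without overlap, and the MCA-969 tumors WR and W-2D (triangles) lie above the other 6 tumors of their line for Dusp5, Spry2 and Phlda1.

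Dusp6 (chromosome 10, 99263231 to 99267489, GRCm38), the phosphatase that acts on ERK in the cytoplasm, was lower in MCA-948 than in all other lines. Its level in the 8 MCA-948 tumors ran from 41.6 to 64.6 CPM with a median of 59.6 CPM. The 4 MCA-943 tumors W-2G, a-1D, a-1G and a-R had 140.0, 141, 107 and 163 CPM, and the 4 MCA-972 tumors a-1, a-1G, 2G and a-R had 118, 157, 138 and 193 CPM. No tumor of the other 4 lines came down to the MCA-948 range. The 6 MCA-970 tumors lay between 106 and 132 CPM (median 119 CPM), and the 8 MCA-969 tumors between 95.8 and 279 CPM (median 181 CPM). Dusp6 was the member called lower in MCA-948 than in each of the other lines, by 1.08 to 1.78 on the log2 scale, with a fold of 3.44 between MCA-969 and MCA-948 (adjusted p = 1.59e-10). That pattern was met by 5.68% of the genes tested. The means of MCA-969, MCA-972, MCA-943 and MCA-970 followed each other at 189.7, 152, 138 and 117 CPM, and no neighbours among these 4 differed at an adjusted p-value under 0.05.

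Dusp4 and Dusp5 encode nuclear phosphatases, Dusp4 with a wider range of MAP kinase substrates and Dusp5 with ERK as its substrate. Dusp4 (chromosome 8, 34807297 to 34819894) had the largest F-test p-value of the members. It was 145 ± 8.89 CPM (SD, n = 4) in MCA-943, 131 ± 21.5 (n = 6) in MCA-970, 114 ± 54.3 (n = 8) in MCA-969, 93.96 ± 11.2 (n = 8) in MCA-948 and 71.3 ± 17.8 (n = 4) in MCA-972. No pair of neighbours in this order differed at an adjusted p-value under 0.05, and the tumor ranges of all neighbours overlapped. MCA-943 against MCA-972 was its only called comparison, by 1.02 ± 0.26 (SE) on the log2 scale (adjusted p = 0.00127). Below the fold threshold, MCA-970 and MCA-969 exceeded MCA-972 by 0.87 and 0.67 (adjusted p = 0.00344 and 0.0139). MCA-943 exceeded MCA-948 by 0.62 (adjusted p = 0.0131), and MCA-948 against MCA-970 was -0.47 (adjusted p = 0.0305).

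Dusp5 (chromosome 19, 53529109 to 53542431; an antisense gene overlaps it, and since the strand setting of the counting is not stated the reads of the pair cannot be told apart) was called higher in MCA-969 than in each of the other 4 lines, a pattern met by 2.23% of the genes tested. It turned on 2 tumors. WR and W-2D of MCA-969 had 364 and 287 CPM, and the other 6 tumors of the line had 46.99 to 91.7 CPM. Dusp5 was 32.2, 34.9, 42.6 and 42.1 CPM in the 4 MCA-943 tumors, and between 33.0 and 62.8 CPM in MCA-948 (median 38.3 CPM). In MCA-972 the tumor a-R had 80.2 CPM, whereas a-1, a-1G and 2G had 27.0, 30.6 and 24.9 CPM. MCA-970 lay between 52.0 and 78.2 CPM (median 63.7 CPM), inside the range of the other 6 MCA-969 tumors. Without WR and W-2D, an alternative chosen after seeing the data, none of the 4 calls was kept. The log2 fold change of MCA-969 over the other lines fell from between 1.07 and 1.83 to between 0.16 (against MCA-970, adjusted p = 0.551) and 0.92 (against MCA-943, adjusted p = 0.00284). MCA-972 a-R was then left out too, again after seeing the data. The excess over MCA-972 was 1.37 there (adjusted p = 2.36e-06) and was called, and those over the other lines were not. With the library series (below) as a covariate, the difference from MCA-948 was 1.74 (adjusted p = 0.0597) and that of MCA-943 from MCA-969 was -1.72 (adjusted p = 0.092), and the calls against MCA-970 and MCA-972 were kept.

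Dusp5 and Spry2 are 2 of the members that varied together among tumors of a line (below), and their upstream sequences are shown for that reason. RefSeq promoter windows (GRCm38.p6), from 250 bases before to 50 after the annotated start, were found for 6 of the 10 members, in 7 windows. The 250 bases before the start were searched on both strands for 4 motifs. They were the ETS site CCGGAA, the AP-1 site TGANTCA, the cyclic AMP response element TGACGTCA and the CArG box bound by serum response factor. These occurred in 12.03%, 6.75%, 1.55% and 1.47% of 32851 promoter windows of all genes. Other forms of an ETS site were not searched for, so a window without CCGGAA may still hold one. Among the 7 member windows the only matches were 2 CArG boxes of Dusp5, whose first bases lie 82 and 72 bases before the RefSeq start and which are in capitals in the sequence of chr19:53528895-53529108 (plus strand, up to the GENCODE start), given here with that of Spry2 at chr14:105896820-105897069 (minus strand), 5′ to 3′.
Dusp5: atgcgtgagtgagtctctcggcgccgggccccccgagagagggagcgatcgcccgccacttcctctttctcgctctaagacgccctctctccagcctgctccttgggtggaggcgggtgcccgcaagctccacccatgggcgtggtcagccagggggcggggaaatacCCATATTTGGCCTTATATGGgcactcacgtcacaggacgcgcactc
Spry2: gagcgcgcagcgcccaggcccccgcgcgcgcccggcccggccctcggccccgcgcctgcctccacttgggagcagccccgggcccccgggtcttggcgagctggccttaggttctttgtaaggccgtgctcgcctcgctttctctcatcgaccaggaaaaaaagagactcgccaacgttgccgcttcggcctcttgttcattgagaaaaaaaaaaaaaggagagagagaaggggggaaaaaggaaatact
The Spry2 window held no match to the 4 motifs, which says only that these letters are not in these 250 bases.

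Among the Sprouty genes, whose products dampen receptor tyrosine kinase signalling, Spry1 had the largest range between lines of all members. Spry1 (chromosome 3, 37639947 to 37644598, with an overlapping antisense gene) was 131 ± 8.77 CPM (SD, n = 6) in MCA-970, with tumors between 122 and 146 CPM, and 31.4 ± 6.54 CPM (n = 8) in MCA-948, with tumors between 22.7 and 41.7 CPM. The fold between these 2 sensitive lines was 4.19 (adjusted p = 6.1e-13). The 4 MCA-943 tumors had 82.9, 84.0, 82.7 and 86.2 CPM, and the MCA-972 tumors a-1, a-1G, 2G and a-R had 57.8, 65.8, 59.5 and 79.7 CPM. MCA-969 lay between 27.8 and 77.5 CPM (median 52.6 CPM), with W-2D and WR as its lowest tumors (27.8 and 37.7 CPM). The direction of Spry1 in WR and W-2D was thus opposite to that of Dusp5. MCA-970 was above all other lines without overlap, and MCA-943 and MCA-972 had ranges apart but an adjusted p-value of 0.121. MCA-972, MCA-969 and MCA-948 followed in that order with adjusted p-values of 0.0454 and 0.000105 for the steps. Neither step passed 0.05 within a library series (below). MCA-969 against MCA-972 was -0.30 on the log2 scale within series 1 (adjusted p = 0.147), in place of -0.39. Against MCA-948 within series 2, with 2 tumors of each line, it was 0.05 (adjusted p = 0.96), in place of 0.68.

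Spry2 (chromosome 14, 105891947 to 105896819) was lowest in MCA-948, at 33.9 to 68.6 CPM (median 49.3 CPM). The 4 MCA-943 tumors had 82.5, 87.8, 78.2 and 87.4 CPM. In MCA-972 the tumors a-1, a-1G and 2G had 104, 99.9 and 105 CPM, and a-R had 189.7 CPM. MCA-970 lay between 79.2 and 106 CPM. The highest tumor was again MCA-969 WR with 200 CPM, followed in its line by W-2D with 135 CPM, above the range of 60.7 to 90.4 CPM of the other 6. The means of MCA-972, MCA-969, MCA-970 and MCA-943 (125, 97.6, 95.2 and 84.0 CPM) did not differ between neighbours beyond the spread, and MCA-943 and MCA-948 did (0.76 ± 0.23 on the log2 scale, adjusted p = 0.00535).

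Spry4 (chromosome 18, 38586247 to 38601415, with 2 overlapping antisense genes) had a narrower range. Its means were 76.3 ± 9.45 CPM (SD, n = 4) in MCA-972, 63.1 ± 15.1 (n = 8) in MCA-969, 61.7 ± 6.85 (n = 6) in MCA-970, 41.9 ± 4.91 (n = 8) in MCA-948 and 41.4 ± 1.29 (n = 4) in MCA-943. MCA-948 and MCA-943 thus formed a low pair that was not told apart (adjusted p = 0.915), and the step from MCA-970 to MCA-948 was without overlap (adjusted p = 0.000104). No comparison of Spry4 reached a log2 fold change of 1.

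Spred1 (chromosome 2, 117121374 to 117182279) encodes a protein that brings the Ras inhibitor neurofibromin to the membrane. MCA-969 had the highest mean, 295 ± 77.0 CPM (SD, n = 8), and the others lay between 167 and 197 CPM, with no adjusted p-value under 0.05 between neighbours. MCA-969 exceeded each of them by 0.59 to 0.82 on the log2 scale, with adjusted p-values from 2.86e-05 to 0.00301 and no call, but the excess over MCA-970 was not seen within a library series (below). The libraries carry numbers in 3 series, and Spred1 moved with them. In MCA-969 the 6 tumors of library series 1 had 245 to 374 CPM and the 2 of series 2 (W-1D and W-2D) had 182 and 195 CPM. In MCA-948 the tumors a-2G and a-R of series 2 had 111 and 101 CPM and the 6 of series 3 had 146 to 225 CPM. Within series 2 alone, Spred1 in MCA-969 against MCA-970 was -0.05 on the log2 scale (adjusted p = 0.788), in place of 0.59 over all tumors, and MCA-948 was below MCA-970 by -0.87 (adjusted p = 0.000264), in place of -0.24. Within series 1, the excess of MCA-969 over MCA-972 was 0.86 (adjusted p = 4.96e-05). Against MCA-948 within series 2, with 2 tumors of each line, it was 0.85 (adjusted p = 0.0993).

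The ETS factor genes differed between lines with little spread inside them. Etv5 (chromosome 16, 22381309 to 22439719) was 115, 98.5, 111 and 102 CPM in the MCA-972 tumors a-1, a-1G, 2G and a-R, 75.6 to 86.6 CPM (median 82.4 CPM) in MCA-970, 48.4 to 72.3 CPM (median 58.9 CPM) in MCA-969, 43.9, 41.3, 39.99 and 44.8 CPM in the MCA-943 tumors, and 20.7 to 32.9 CPM (median 29.2 CPM) in MCA-948. No tumor of a line overlapped the range of another, a pattern met by 0.160% of the genes tested, and each step of the order passed an adjusted p-value of 0.05. The ends of the order, MCA-972 and MCA-948, are both sensitive lines, and their fold was 3.77 (log2 fold change 1.92 ± 0.10 SE, adjusted p = 4e-16).

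Etv4 (chromosome 11, 101769742 to 101785371) was highest in MCA-970, where the tumors lay between 172 and 199.6 CPM (median 178 CPM). The MCA-972 tumors had 131, 126, 135 and 110 CPM, the MCA-943 tumors had 106, 99.2, 96.3 and 102 CPM, and MCA-969 lay between 85.1 and 131 CPM (median 102 CPM). MCA-948 was below all of these, at 60.9 to 73.5 CPM (median 64.9 CPM). MCA-969 and MCA-943 were not told apart (adjusted p = 0.722). Dusp6, Etv4 and Etv5 were the 3 members whose MCA-948 tumors all lay below every tumor of the other 4 lines, and 4.80% of the genes tested had this pattern.

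Phlda1 (chromosome 10, 111506286 to 111508645, with an overlapping antisense gene), a pleckstrin homology-like domain gene that growth factors induce, was 209.8, 192, 231 and 199 CPM in the MCA-943 tumors and 50.7 to 102 CPM (median 66.6 CPM) in MCA-948. The fold between these lines was 2.997 (adjusted p = 1.05e-05). In MCA-972 the tumors a-1, a-1G and 2G had 135, 133 and 139 CPM and a-R had 203 CPM. MCA-970 lay between 98.3 and 139.7 CPM. In MCA-969 the tumors WR and W-2D had 482 and 296 CPM and the other 6 had 105 to 144 CPM, so that no tumor of the line lay near its mean of 194 CPM. MCA-943, MCA-969, MCA-972 and MCA-970 had no adjusted p-value under 0.05 between neighbours, and MCA-970 exceeded MCA-948 (0.76 on the log2 scale, adjusted p = 0.00852). MCA-943 and MCA-969 exceeded MCA-970 by 0.83 and 0.73 (adjusted p = 0.017 and 0.015).

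The RNA sequencing addressed how lines that are not sensitive to NK1.1+ cells differ from sensitive ones, which gives 6 comparisons. None of the 10 members was called in the same direction in all 6, against 0.878% of the genes tested. MCA-948, a sensitive line, had 3 members called lower than MCA-943 and 4 called lower than MCA-969, with Dusp6 and Phlda1 in both sets. MCA-970 and MCA-972, also sensitive, had at most 1 member called lower than either non-sensitive line. The shares over all genes are given below. The comparisons share lines, so that they are not independent of each other. Called means an adjusted p-value under 0.05 and a log2 fold change of at least 1 in either direction.

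Against MCA-948, MCA-943 had 3 members called higher (Dusp6, Spry1 and Phlda1) and none lower, where 17.7% and 11.3% of the genes tested were called higher and lower. The median log2 fold change was 0.62 over the members and -0.01 over all genes tested. Against the same line, MCA-969 had 4 called higher (Dusp5, Dusp6, Etv5 and Phlda1) and none lower, with a background of 16.8% and 3.91%. All 10 members were above 0 in this comparison, with a median of 0.90 over the members and 0.04 over all genes. Within library series 3 the same 3 members were called in MCA-943 against MCA-948 (1.27, 1.52 and 1.71 on the log2 scale), beside 29.6% of the genes in both directions together. Within series 2, with 2 tumors of each line, no member was called in MCA-969 against MCA-948 while 0.648% of the genes were (Dusp5 1.73, Dusp6 1.39, Etv5 0.87, Phlda1 1.22). With the library series as a covariate over all tumors, Dusp6 was the call left of these 4 (1.38, adjusted p = 0.00101). Etv5 was then at 0.86 (adjusted p = 0.000183), below the fold threshold. Dusp5 and Phlda1 were at 1.74 and 1.22 (adjusted p = 0.0597 and 0.0521). Without WR and W-2D, 2 calls were left, Dusp6 and Etv5, and Phlda1 was at 0.90 (adjusted p = 3.63e-07).

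Against MCA-970, MCA-943 had no member called, beside 12.6% of the genes called higher and 14.8% lower. At adjusted p-values under 0.05 but below the fold threshold, Etv5, Etv4, Spry1 and Spry4 were lower in MCA-943 (by 0.94, 0.85, 0.65 and 0.58 on the log2 scale) and Phlda1 was higher (by 0.83). MCA-969 against MCA-970 had Dusp5 called higher (1.07) and Spry1 called lower (-1.39), with a background of 10.7% in each direction. Within library series 2 the values were 1.47 for Dusp5 and -1.69 for Spry1, both called, beside 17.4% of the genes in both directions together. MCA-969 has only W-1D and W-2D there. Dusp5 was 66.4 CPM in W-1D, inside the range of MCA-970, and 287 CPM in W-2D, so that this value turned on 1 tumor.

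Against MCA-972, MCA-943 had Dusp4 called higher (1.02) and Etv5 called lower (-1.32), with a background of 12.2% higher and 13.4% lower. With the library series as a covariate neither was called. Dusp4 was at 1.12 (adjusted p = 0.0912), and Etv5 at -0.9995 (adjusted p = 0.00067) was just short of the fold threshold. MCA-969 against MCA-972 had Dusp5 called higher (1.73) and none lower, with a background of 10.3% in each direction. Within library series 1 the Dusp5 difference was 1.57 with an adjusted p-value of 0.0545. The 2 non-sensitive lines differed from each other in Dusp5, which was called lower in MCA-943 than in MCA-969 (-1.83), with no member called higher. In that comparison 14.9% of the genes were called lower and 12.1% higher.

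**Figure D2:**
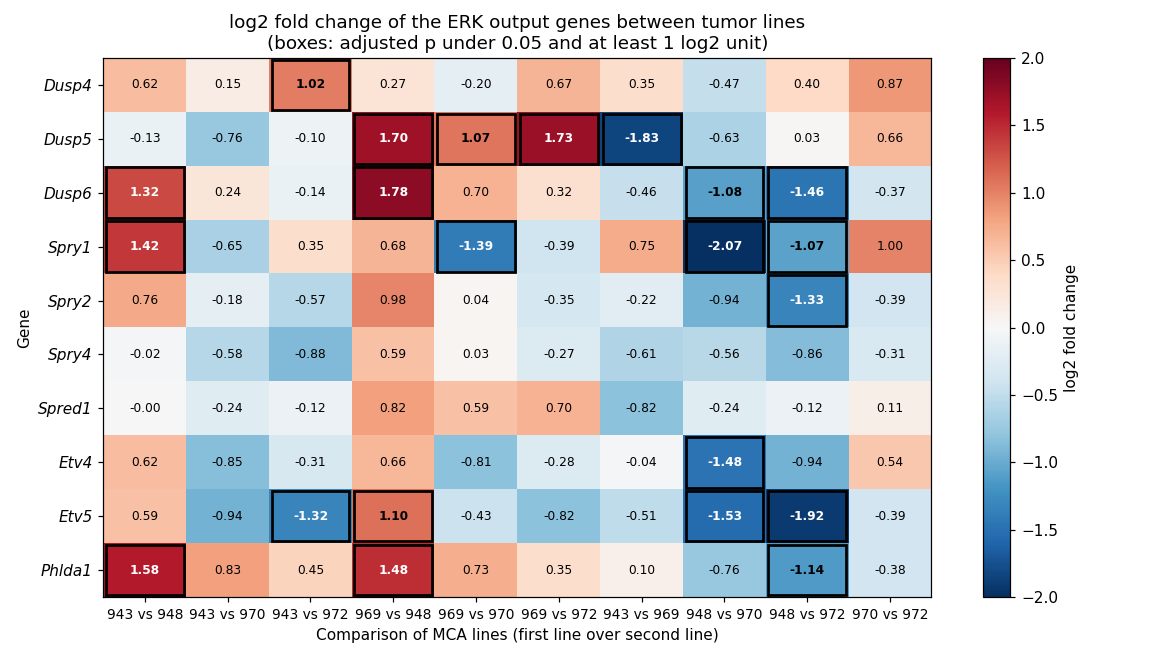
Log2 fold change of each of the 10 genes (rows) in the 10 comparisons of 2 MCA lines (columns, first line over second), coloured from -2 (blue) to 2 (red), with boxes around the called values. Calls gather in the comparisons with MCA-948 and in the Dusp5 row for MCA-969; the value of 1.00 for Spry1 in MCA-970 over MCA-972 has no box because it is just under 1 before rounding.

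Members also differed between the sensitive lines. MCA-948 against MCA-970 had 4 members called lower (Dusp6, Spry1, Etv4 and Etv5) and none higher, with a background of 19.8% lower and 9.64% higher. All 10 members were below 0, with a median of -0.85 over the members and -0.05 over all genes tested. The 4 calls were also made within library series 2, where 23.6% of the genes were called in both directions together. MCA-948 against MCA-972 had 5 called lower (Dusp6, Spry1, Spry2, Etv5 and Phlda1) and none higher, with a background of 18.5% lower and 8.27% higher, and a median of -1.003 over the members and 0.01 over all genes. These 2 lines share no library series, and with the series as a covariate Etv5 was the call left (-1.62). There Dusp6, Spry2 and Phlda1 were at -0.93, -0.99 and -0.92 (adjusted p = 0.045, 0.105 and 0.217), and Spry1 fell from -1.07 to -0.33 (adjusted p = 0.414). Without the MCA-972 tumor a-R, Spry1 (-0.96) and Phlda1 (-0.97) fell short of the fold threshold and 3 calls were left. MCA-970 against MCA-972 had no member called, beside 8.56% of the genes higher and 9.01% lower.

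Dissociation stress genes were also lower in MCA-948. The summed level of the 11 genes of a dissociation stress list, immediate early and heat shock genes that rise when tissue is taken apart, was 4591 to 8753 CPM in MCA-948 and 10738 to 24722 CPM in the tumors of the other 4 lines. Much of the sum in MCA-972 was Jun, with 7536 to 13704 CPM there and 1048 to 2653 CPM in the other lines. Every other gene of the list also had a lower mean in MCA-948 than in MCA-972. Fos had 1061 and 1631 CPM and Egr1 had 1666 and 2410 CPM, with overlapping tumor ranges for both. Sums without Jun were not compared, so whether their tumor ranges would also lie apart in these 2 lines is not known. In the comparisons of MCA-948 with MCA-943, MCA-969, MCA-970 and MCA-972, 7, 7, 8 and 5 of the 11 were called, all lower in MCA-948. Of all genes tested, 17.7%, 16.8%, 19.8% and 18.5% were called lower in MCA-948 in these comparisons. The list shares Egr1, Fos and Fosb with the list of further ERK-responsive genes described below. Within MCA-948, the tumors a-2G and a-R of library series 2 had the highest stress sums (8753 and 7560 CPM against 4591 to 6380 CPM in series 3) and also the highest Phlda1 (80.5 and 102 CPM against 50.7 to 68.7 CPM), Spry1 (37.2 and 41.7 against 22.7 to 35.3 CPM) and Spry2 (57.3 and 68.6 against 33.9 to 53.0 CPM). Etv4 was highest in the same 2 tumors too (73.5 and 67.2 against 60.9 to 65.5 CPM). Spred1 was lowest in them, and Dusp4, Dusp6 and Etv5 lay inside the range of the other 6. Spry4 was the lowest of the line in a-2G (33.3 CPM, against 36.2 to 48.2 CPM in series 3) and inside that range in a-R. Dusp5 was highest in a-R (62.8 CPM, against 33.0 to 43.6 CPM in series 3) and inside that range in a-2G. The part of the stress genes in the low level of the members in MCA-948 was not tested.

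The MCA-969 tumors WR and W-2D stood apart in some members and not in others. Both were the highest of their line in Dusp4 (238 and 123 CPM), Dusp5, Spry2 and Phlda1, and the lowest in Spry1. In Dusp6, Etv4, Etv5, Spry4 and Spred1 at least 1 of the 2 lay inside the range of the other 6 tumors, as with Dusp6 at 245 and 178 CPM against 95.8 to 279 CPM. Their stress sums were 14397 and 10738 CPM, against 12855 to 15545 CPM in the other 6 tumors of the line. WR belongs to library series 1 and W-2D to series 2. The MCA-972 tumor a-R, the highest of its line in Dusp5, Dusp6, Spry1, Spry2 and Phlda1, had the highest stress sum of all 30 tumors, 24722 CPM, against 13169 to 15266 CPM in the other 3. Sums in this line include Jun at up to 13704 CPM, against at most 2653 CPM in the other lines. The part of the stress genes in the levels of a-R was not tested.

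Dusp5, Spry2 and Phlda1 varied together among tumors of the same line. After the mean of each line was subtracted from the log2 CPM of its tumors, Dusp5 and Phlda1 had a Pearson r of 0.93 and a Spearman rho of 0.83 over 30 tumors. The permutation p within lines (two-sided, 100000 permutations) was 1e-05 for both, the smallest that number can give, and 0.000225 after Benjamini-Hochberg adjustment over the 45 pairs of members. Dusp5 and Spry2 had r = 0.91 and rho = 0.86 with the same permutation p-values. For Spry2 and Phlda1, r was 0.89 and rho 0.78 (adjusted permutation p = 0.0003 and 0.0009). The tumors WR, W-2D and a-R extended these relations, and without the 2 tumors farthest from the median of the first gene r was 0.81, 0.80 and 0.83. Without WR, W-2D and a-R, r was 0.79, 0.66 and 0.66 (adjusted permutation p = 0.00135, 0.0168 and 0.0444).

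A further pair was Dusp6 with Etv5, at r = 0.67 and rho = 0.65 (permutation p = 0.00065 and 0.00098, adjusted 0.00731 and 0.011). It did not hold without MCA-969, where r was 0.44 (adjusted permutation p = 0.28). By rho, but not by r, Dusp6 with Spry4 (0.58, adjusted permutation p = 0.0262, against 0.066 for r) and Spry4 with Spred1 (0.61, adjusted permutation p = 0.0177, against 0.0874 for r) also passed. The other 39 of the 45 pairs passed by neither measure. With the mean of each line and library series subtracted in place of the line mean, the 4 pairs that passed by r had 0.94, 0.93, 0.90 and 0.64.

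**Figure D3:**
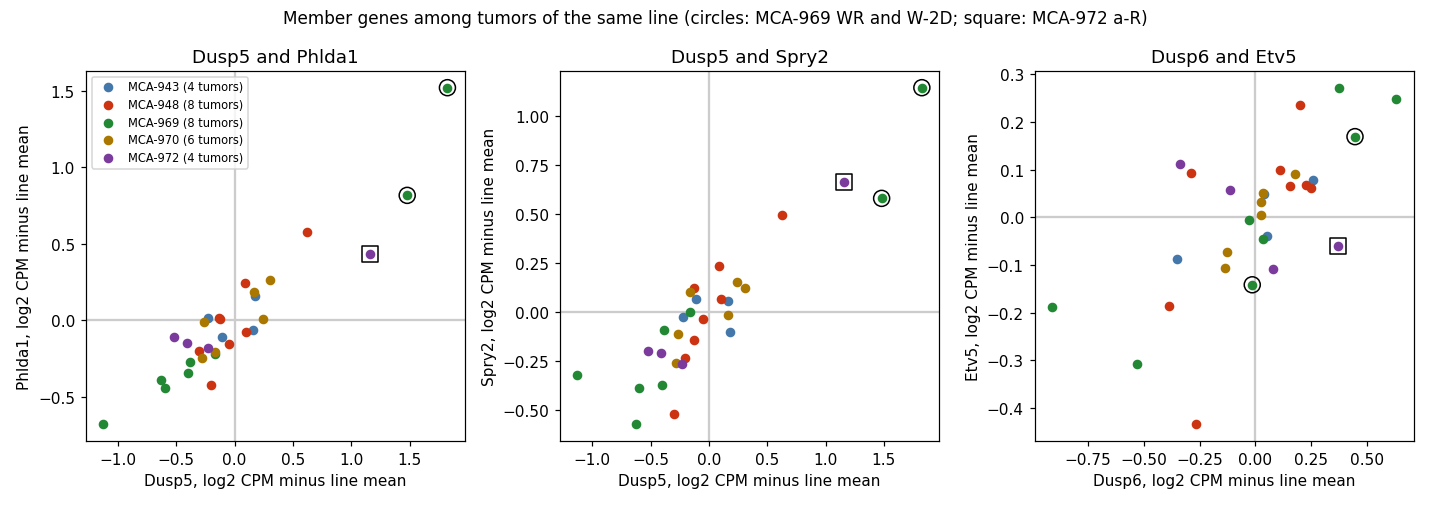
Dusp5 against Phlda1, Dusp5 against Spry2 and Dusp6 against Etv5 in 30 tumors, each axis the log2 CPM minus the mean of the tumor's MCA line, coloured by line. In the first 2 panels the tumors MCA-969 WR and W-2D (circled) and MCA-972 a-R (boxed) lie at the upper right and the other tumors rise with them; in the Dusp6 and Etv5 panel these 3 tumors do not stand together.

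Outside the members, the genes whose deviations from the line mean were most like those of Dusp5 were Ifrd1, Sgk1 and Lif (within-line Pearson r of 0.92, 0.90 and 0.90 over 30 tumors, among 12951 genes with a mean of at least 1 CPM). For Spry2 they were Sox9, Smad7 and Sgk1 (0.92, 0.89 and 0.88), and for Phlda1 Bdkrb1, Il11 and Fam13c (0.90, 0.89 and 0.88). Without WR and W-2D the values for these 9 pairs were between 0.59 (Phlda1 with Fam13c) and 0.92 (Phlda1 with Bdkrb1). Spred1 was most like Tm9sf3, Rap2c and Il13ra1 (0.93, 0.93 and 0.92), which fell to 0.76, 0.71 and 0.81 once the mean of each line and library series was subtracted. The remaining members had as their most alike genes Lrrc8d for Dusp4 (0.88), Sfpq for Dusp6 (0.75), Plce1 for Spry1 (0.86), Ero1lb for Spry4 (0.82), Dgkz for Etv4 (0.79) and Tmem230 for Etv5 (0.77). These genes were picked for their r, which is a description.

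Upstream of the members, transcripts of the ERK cascade itself were counted in the same way. Of 20 genes from Grb2 to Rps6ka3, 0 to 2 were called higher per comparison, beside 8.27% to 17.7% of all genes tested. Called lower were 0 to 1, beside 3.91% to 19.8%, and the difference from these shares was not tested. The median log2 fold change of the list lay between -0.20 and 0.31. Ptpn11, the gene of the phosphatase SHP2, was highest in MCA-948 (243 CPM against 141 to 191 CPM). Map2k2, the gene of MEK2, was lowest there (45.1 CPM against 56.6 to 85.5 CPM). Shc1, an adaptor of receptor kinases, had 344 and 333 CPM in MCA-970 and MCA-972 and 195 to 215 CPM in the other lines. Rps6ka1, a kinase downstream of ERK, was 4.03 CPM in MCA-943 and 16.2 to 45.8 CPM in the other lines.

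Of 20 further ERK-responsive genes, 8 were called higher and none lower in MCA-969 against MCA-948, beside 16.8% and 3.91% of all genes tested. In MCA-948 against MCA-970, 2 were higher and 10 lower, beside 9.64% and 19.8%. In MCA-943 against MCA-948, 5 were higher and 3 lower, beside 17.7% and 11.3%. In MCA-948 against MCA-972, 4 were higher and 5 lower, beside 8.27% and 18.5%. The differences from these shares were not tested. Egr1, Fos and Fosb, the 3 with the highest CPM of the list, are also stress genes and were lowest on average in MCA-948 (1666, 1061 and 697 CPM). Etv1, which belongs to the same ETS subfamily as Etv4 and Etv5, was likewise lowest in MCA-948 (24.1 ± 2.68 CPM, SD, n = 8) and had 40.6 to 87.9 CPM in the other lines. Dusp9 and Dusp7, phosphatases of the same class as Dusp6, ran the other way and were highest in MCA-948 (85.3 and 51.0 CPM), with Dusp9 at 16.4 CPM in MCA-970 and Dusp7 at 21.6 CPM in MCA-972.

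Ligands and receptors of the FGF and EGF families were called in both directions. Of 23 genes 21 were tested, and in MCA-969 against MCA-948 13 were called higher and 1 lower, where 16.8% and 3.91% of all genes tested were. This comparison had a median log2 fold change of 1.45 over the list and 0.04 over all genes tested. Against MCA-970 and MCA-972, MCA-948 had 9 and 7 called lower and 0 and 3 higher. The shares of all genes there were 19.8% and 18.5% lower and 9.64% and 8.27% higher. In MCA-943 against MCA-948, 9 were higher and 5 lower, beside 17.7% and 11.3% of all genes. Fgfr1 had 972 and 892 CPM in MCA-972 and MCA-970 and 460 to 757 CPM in the other lines. Fgfr2 was 0.0748 CPM in MCA-948, near the 0.0602 to 0.113 CPM that 3 counts give in these libraries, and 2.21 to 9.37 CPM in the other lines. Egfr had its highest mean in MCA-943 (155 CPM) and its lowest in MCA-969 (35.2 CPM). Erbb2 and Fgf1 were lowest in MCA-948 (3.38 and 0.638 CPM) and highest in MCA-943 (27.2 and 5.88 CPM).

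Ereg, the gene of the EGF receptor ligand epiregulin, was high in the same tumors as Dusp5. It had 1905 and 1524 CPM in MCA-969 WR and W-2D and 203 to 527 CPM in the other 6 tumors of the line. In MCA-972 it had 245 CPM in a-R and 130, 103 and 55.3 CPM in a-1, a-1G and 2G. MCA-970 lay between 173 and 395 CPM, and MCA-943 and MCA-948 between 9.14 and 37.9 CPM, where the highest tumor was MCA-948 a-R, which was also the highest of its line in Dusp5. Its within-line r over 30 tumors was 0.86 with Dusp5, 0.85 with Phlda1 and 0.81 with Spry2, and 0.73, 0.74 and 0.65 without WR and W-2D. With Dusp4, Dusp6, Spry4 and Etv5 it was 0.67, 0.37, 0.30 and 0.18, and 0.45, 0.31, 0.17 and 0.20 without WR and W-2D. With Etv4 and Spred1 it was -0.36 and -0.13, and -0.32 and -0.05 without them. With Spry1 it changed sign, from -0.23 to 0.35 without WR and W-2D. Ereg was picked for these values after the data were seen, and they are a description.

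**Figure D4:**
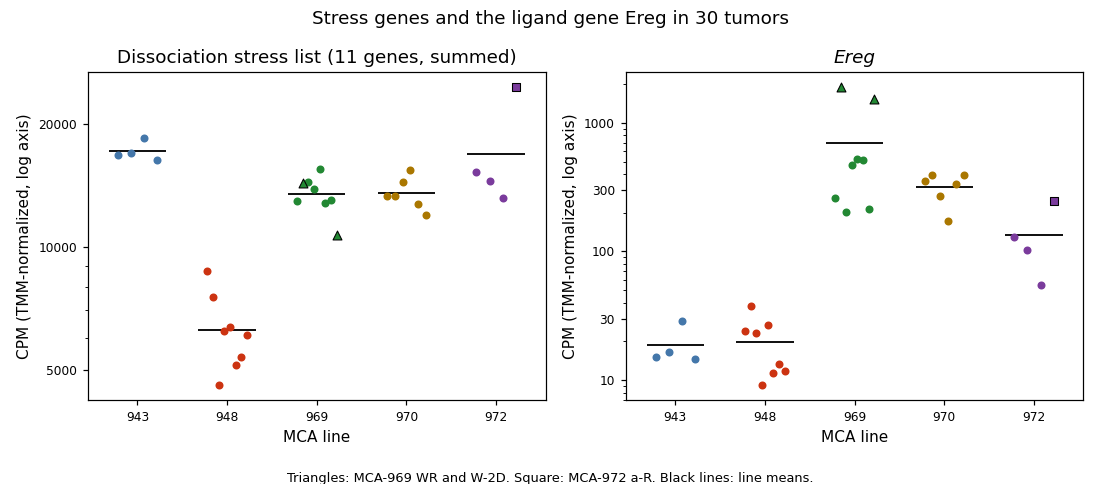
Summed level of the 11 dissociation stress genes and level of Ereg in 30 tumors, in CPM on logarithmic axes, with 1 point per tumor and a black line at the mean of each MCA line. MCA-948 has the lowest stress sums, and much of the MCA-972 sums is Jun. The MCA-969 tumors WR and W-2D (triangles) have the highest Ereg but not the highest stress sums of their line, and MCA-972 a-R (square) is the highest of its line in both.

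The sample titles carry a letter, W or a, whose meaning is not stated, and it was compared within the 4 lines that hold both. None of the 10 members passed an adjusted p-value of 0.05 in edgeR's model of line and letter over 26 tumors, where 0.272% of 16557 genes did. At an unadjusted p-value under 0.05 there were 3 members, Dusp4 (0.37 ± 0.12 SE higher in W on the log2 scale, adjusted p = 0.422), Spry1 (-0.31 ± 0.10, adjusted p = 0.318) and Etv5 (-0.16 ± 0.06, adjusted p = 0.514), beside 7.35% of all genes. DESeq2 and limma-voom also gave 0 members at an adjusted p-value under 0.05.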

How the data were processed

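RNA of 30 tumors was measured. The authors aligned reads with STAR 2.5.3a to GRCm38, removed duplicates by molecular identifiers and deposited counts per gene from featureCounts (version 1.5.2 in the submitters' processing notes, another in the study's methods; strand setting not given in the sources used here). Names and positions came from GENCODE vM21, which names 48058 genes; 0 sample columns were unmapped. The members and gene lists were chosen with earlier results of these data known.

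Counts were filtered with filterByExpr by line, normalized with TMM and fitted with edgeR 4.0.16 (robust quasi-likelihood, line as factor, 30 tumors, Benjamini-Hochberg over 16862 genes; biological coefficient of variation 0.221). Log2 CPM used a prior count of 2. Correlations were tested with 100000 permutations within lines (NumPy 2.4.6). Named were all 10 members, the 3 genes most like each, and the 3 most abundant and 3 with the smallest F-test p per list. Alternatives were DESeq2 1.42.0, limma-voom (limma 3.58.1) and other scalings, filters and thresholds. Library series, title code and letter as terms, separate fits and leaving out tumors were also run. Leaving out named tumors together was added after seeing the data. The code was tested on simulated counts. Nothing states that tumors of a line came from separate cultures, so p-values measure the spread between these tumors. Limits from a count of 3 cover counting error only. The other experiments of the study were not used here. One result of the gene lists is not reported here.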

Additional observations from a re-analysis of the deposited data

Results flagged for a closer look

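In 50 groups of 4 to 8 tumors (10 genes in 5 lines), 5 highest tumors lay apart from the rest of their line by Dixon's test at the 95% level, where chance flags about 1 in 20 groups. Dusp4 was 238 CPM in MCA-969 WR, with 123 CPM in the next tumor. Dusp5 was 62.8 CPM in MCA-948 a-R, with 43.6 CPM in the next tumor. In MCA-972 the tumor a-R was apart in 3 genes: Dusp5 with 80.2 CPM against 30.6 CPM in the next tumor, Spry2 with 189.7 against 105 CPM, and Phlda1 with 203 against 139 CPM. Its dissociation stress sum of 24722 CPM, with Jun included, was also the highest of the 30 tumors. The MCA-969 tumors WR and W-2D were not set apart in Dusp5 or Phlda1 by this test, which looks at 1 tumor at a time. No cause was tested.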

How the results depend on the processing

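Counts of called members per comparison changed as follows. MCA-943 against MCA-972 went from 2 to 1 with DESeq2, with DESeq2 size factors in edgeR, with a mean of at least 1 CPM, with the library series and with the title letter. MCA-970 against MCA-972 went from 0 to 1 with limma-voom, without the filter, with the library series, with the letter and without both MCA-969 tumors labelled sensitive. The library series also moved MCA-943 against MCA-970 from 0 to 2, MCA-943 against MCA-969 from 1 to 2 (Dusp5 not among them), MCA-969 against MCA-948 from 4 to 1 and MCA-948 against MCA-972 from 5 to 1. MCA-969 against MCA-970 went from 2 to 1 with limma-voom, without both tumors labelled sensitive and without WR and W-2D. Without WR and W-2D, MCA-969 against MCA-948 went from 4 to 2, and MCA-969 against MCA-972 and MCA-943 against MCA-969 from 1 to 0. With MCA-972 a-R left out too, the counts were 2 for MCA-969 against MCA-948 and 1 against MCA-970. They were 0 for MCA-943 against MCA-969 and 2 for MCA-970 against MCA-972. Dusp5 in MCA-969 against MCA-972 was called again there (1.37, adjusted p = 2.36e-06). Inside series 1, MCA-969 against MCA-972 had 0 called, beside 19.8% of all genes, and inside series 2, MCA-969 against MCA-948 had 0, beside 0.648%. Without a fold threshold there were 7 (MCA-943 against MCA-948), 5 (MCA-943, MCA-970), 4 (MCA-943, MCA-972), 9 (MCA-969, MCA-948), 7 (MCA-969, MCA-970), 6 (MCA-969, MCA-972), 6 (MCA-943, MCA-969), 8 (MCA-948, MCA-970) and 4 (MCA-970, MCA-972). In MCA-948 against MCA-972, Spry4 and Etv4 joined the 5 called members. Shares of all genes without a fold threshold are not given here, so these counts are not read as a result about the members. At a log2 fold change of at least 2, 1 was called in MCA-948 against MCA-970 and 0 in the other comparisons. Pairs of members that varied together went from 4 to 7 without WR and W-2D. The causes of these changes were not tested beyond the samples and thresholds that each setting changes.

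Leaving out 1 tumor at a time gave 3 to 3 called members for MCA-943 against MCA-948, 1 to 1 for MCA-943 against MCA-969, 0 to 0 for MCA-943 against MCA-970, 1 to 2 for MCA-943 against MCA-972, 4 to 5 for MCA-948 against MCA-970, 3 to 5 for MCA-948 against MCA-972, 4 to 5 for MCA-969 against MCA-948, 1 to 2 for MCA-969 against MCA-970, 1 to 1 for MCA-969 against MCA-972, 0 to 2 for MCA-970 against MCA-972 and 0 to 0 for W against a, 10 to 10 members in the F test and 4 to 6 pairs. Without MCA-969 WR, Dusp5 in MCA-969 against MCA-970 was 0.67 on the log2 scale. Of the 22 called fold changes none changed sign under the settings run, 652 of 660 values with 1 tumor left out were called, and 12 of 22 were called with the library series as a covariate.

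The code of each title, letter included, was also used as a replicate block, though what it stands for is not stated. MCA-943 against MCA-970 and MCA-970 against MCA-972 then had 1 called each. MCA-969 against MCA-970 had 1 and MCA-969 against MCA-972 had 0 (Dusp5 at 0.87 and 1.00). The codes did not pair the tumors: over 29 pairs with the same code in different lines the correlation of deviations was 0.02 at the median, from -0.43 to 0.41, and 8 exceeded 0.1. Each line is 1 primary tumor, library series 2 holds 2 tumors each of MCA-948 and MCA-969, and MCA-948 shares no series with MCA-972, which limits what the series can be separated from. Depth was not limiting for the members, whose lowest level was 20.7 CPM.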
